A study of Mus musculus with 12 samples.

Results

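Inflammasomes are protein platforms that sense infection or damage inside the cell, and gasdermins are a family of pore-forming proteins, of which gasdermin D is the one that inflammasome caspases cleave. The 10 genes described here were Nlrp3, Nlrp6, Nlrc4 and Aim2 (sensors), Pycard (the adaptor ASC), Casp1 and Casp4 (the inflammatory caspases), and Gsdmd, Gsdmc2 and Gsdmc4 (gasdermins). They were chosen by name as rows of a gene table with 54532 rows, and all 10 were among the 24102 genes tested. Total RNA of mouse colon was sequenced after polyA selection in 12 libraries, 3 in each of 4 groups.

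The groups were untreated Tmem173fl/fl mice, untreated Tmem173iΔmye mice, and mice of both genotypes that drank dextran sulfate sodium (DSS) for 7 days. Tmem173 encodes STING, a sensor of cyclic dinucleotides made in response to cytosolic DNA. Tmem173fl/fl mice (labelled WT) carry floxed alleles of it and no Cre. Tmem173iΔmye mice (labelled CRE) are Tmem173fl/fl mice with Lyz2-Creert2, a tamoxifen-inducible Cre driven by the Lyz2 gene of myeloid cells, so that cells of other lineages keep the gene. All groups, untreated ones included, had 5 intraperitoneal tamoxifen injections, and per the study's methods mice were 6 to 8 weeks old at the start of DSS, which injures the colon epithelium. The libraries of the colitic Tmem173iΔmye group carry the numbers 1, 2 and 5, those of the other groups 1, 2 and 3.

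When a sensor is triggered, it gathers the adaptor ASC, which recruits and activates caspase-1. Caspase-1 cleaves the precursors of interleukin-1β and interleukin-18 and also cleaves gasdermin D, whose released N-terminal part makes holes in the plasma membrane, a death called pyroptosis. Caspase-4 (caspase-11 in the older mouse literature) binds bacterial lipopolysaccharide directly and cleaves gasdermin D without an adaptor. In the gut, NLRP6, caspase-1 and interleukin-18 are known mainly from epithelial cells, NLRP3 and interleukin-1β mainly from myeloid cells, and the gasdermin C genes are known from the intestinal epithelium.

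The sequences of the gasdermin C genes bear on how far their counts can be told apart. Gsdmc2 and Gsdmc4 lie with Gsdmc3 in a run of neighbouring genes on chromosome 15 (GRCm38, Gsdmc2 at 63824346 to 63845177, Gsdmc3 at 63857724 to 63878558 and Gsdmc4 at 63891264 to 63912297, all on the minus strand). Their coding sequences, 1443 bases each in GENCODE, were 92.9% identical between Gsdmc2 and Gsdmc4, 93% between Gsdmc3 and Gsdmc4 and 97.1% between Gsdmc2 and Gsdmc3. The first 120 coding bases are shown because they differ at only 2 positions, given in capitals.
Gsdmc4: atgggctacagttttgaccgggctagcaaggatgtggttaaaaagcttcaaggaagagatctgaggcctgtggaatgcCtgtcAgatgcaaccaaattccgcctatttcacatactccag
Gsdmc2: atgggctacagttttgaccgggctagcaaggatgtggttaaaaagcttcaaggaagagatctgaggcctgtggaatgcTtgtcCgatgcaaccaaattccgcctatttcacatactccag
Gsdmc3: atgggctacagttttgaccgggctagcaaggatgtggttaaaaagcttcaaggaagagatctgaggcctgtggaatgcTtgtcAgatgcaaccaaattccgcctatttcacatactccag
Of all stretches of 100 bases in the transcripts, 28.6% of those of Gsdmc2 and 20.2% of those of Gsdmc4 also occur in another gasdermin transcript, against 0% for Gsdmd. The sources used here do not say how reads that fit several genes were counted, so the levels of Gsdmc2 and Gsdmc4 are uncertain to that extent. The share was not computed for Gsdmc3, whose level is uncertain as well.

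Promoters from RefSeq (GRCm38.p6, 250 bases before to 50 after a start site, plus strand) are shown for Nlrp6 and Casp1, which moved together over the libraries (Pearson r 0.895 over 12 libraries), and for Nlrp3 and Casp4, which held letters of the NF-kB consensus. Pycard, whose promoter is not shown, had a higher r with Casp1 (0.941). Both values mostly describe the group pattern. Nlrp6 is at chr7:140920652-140920951, Casp1 at chr9:5298267-5298566, Nlrp3 at chr11:59541319-59541618 and Casp4 at chr9:5308599-5308898. Capitals mark the AP-1 letters TGANTCA in Nlrp6 and the NF-kB letters in Nlrp3 and Casp4.
Nlrp6: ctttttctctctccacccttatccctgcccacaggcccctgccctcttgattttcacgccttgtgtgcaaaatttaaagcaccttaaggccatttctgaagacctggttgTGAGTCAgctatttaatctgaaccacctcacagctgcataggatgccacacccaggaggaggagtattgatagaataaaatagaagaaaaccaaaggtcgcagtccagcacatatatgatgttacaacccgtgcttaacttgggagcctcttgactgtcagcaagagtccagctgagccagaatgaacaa
Casp1: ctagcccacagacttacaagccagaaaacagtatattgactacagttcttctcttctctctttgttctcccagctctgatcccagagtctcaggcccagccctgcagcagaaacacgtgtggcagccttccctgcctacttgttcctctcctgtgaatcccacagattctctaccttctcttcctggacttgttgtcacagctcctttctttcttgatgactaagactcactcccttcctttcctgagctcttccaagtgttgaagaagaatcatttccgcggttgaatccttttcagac
Nlrp3: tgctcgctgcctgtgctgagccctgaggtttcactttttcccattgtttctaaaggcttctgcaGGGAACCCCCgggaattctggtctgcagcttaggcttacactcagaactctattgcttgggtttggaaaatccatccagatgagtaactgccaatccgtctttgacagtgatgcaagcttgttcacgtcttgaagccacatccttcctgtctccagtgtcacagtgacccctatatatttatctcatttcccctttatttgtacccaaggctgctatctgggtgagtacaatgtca
Casp4: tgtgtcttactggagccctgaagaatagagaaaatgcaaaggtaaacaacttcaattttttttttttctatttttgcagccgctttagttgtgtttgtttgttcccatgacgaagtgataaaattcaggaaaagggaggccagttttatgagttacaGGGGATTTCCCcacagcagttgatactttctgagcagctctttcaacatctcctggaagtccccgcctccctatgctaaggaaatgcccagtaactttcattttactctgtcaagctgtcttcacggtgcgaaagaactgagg
Promoters were found for 7 of the 10 genes (9 entries) and searched on both strands for the ISRE and NF-kB consensus, for GAS TTCNNNGAA and for AP-1 TGANTCA, which occur in 0.17%, 4.51%, 8.3% and 7.81% of 32851 promoters of the same length. The AP-1 letters in Nlrp6 start at position -140 from the start site, the NF-kB letters at -186 in Nlrp3 (1 of its 2 entries) and at -93 in Casp4, where 2 matches overlap. No entry held the ISRE or GAS letters. The NF-kB matches depended on the spelling, as a narrower one found in 1.47% of promoters matched none of the 9 entries. A match describes letters and shows no binding.

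Library totals ran from 13823237 to 18718915 counts. Tmem173 itself was at 18.4, 19.1 and 16.4 RPKM (counts scaled by gene length and by library size with TMM) in colitic Tmem173fl/fl libraries. Colitic Tmem173iΔmye ones were at 20.8, 10.3 and 13.5, so a loss was not detectable in total colon in these libraries (log2 fold change -0.28, SE 0.26, edgeR adjusted p 0.602). With DSS it rose by 1.07 log2 units in Tmem173fl/fl mice (edgeR adjusted p 0.00255), and the estimate in Tmem173iΔmye mice was 0.95 (adjusted p 0.135). By qPCR the study reports a smaller rise of Tmem173 in inflamed colon after the myeloid knockout. By immunofluorescence it reports a loss of STING in CD11b+ cells. Colitic Tmem173iΔmye libraries differed among themselves. The summed level of 6 neutrophil markers was 20.7 to 125 RPKM in them, 427 to 630 in colitic Tmem173fl/fl libraries and at most 9.41 in untreated ones. The summed level of 6 epithelial markers (Epcam, Cdh1, Krt8, Krt18, Krt19 and Vil1) was 4950 to 6420 RPKM in untreated libraries, 1780 to 3110 in colitic Tmem173fl/fl ones and 3760 to 4720 in colitic Tmem173iΔmye ones, and none of these markers was at 0 in any library. Fibroblast markers moved with the same groups, with 5 of 5 called higher with DSS in Tmem173fl/fl mice and 5 of 5 called lower in Tmem173iΔmye mice when colitic genotypes were compared. Y-linked genes were at 0 counts in replicate 5 of the colitic Tmem173iΔmye group and in replicate 3 of both untreated groups, so sex differed between libraries. Summed pancreas markers, which are foreign to colon, ran from 0 to 7130 RPKM with wide spread in every group. The colitic Tmem173fl/fl group had the highest median, 3240 RPKM (398 to 6570). Medians were 0.196 in untreated Tmem173fl/fl, 16.7 in untreated Tmem173iΔmye and 63 in colitic Tmem173iΔmye libraries, with highest values of 2070, 1240 and 7130. The part of this tissue in the group differences was not tested.

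In untreated Tmem173fl/fl colon the order of the levels was Gsdmc4 at 417 ± 133 RPKM, Gsdmc2 at 149 ± 26.7, Casp1 at 117 ± 11.4, Nlrp6 at 81.1 ± 11.3, Gsdmd at 72.1 ± 14.6, Pycard at 22.8 ± 1.31, Aim2 at 21.6 ± 2.76, Casp4 at 17.7 ± 3.28, Nlrc4 at 10.5 ± 1.27 and Nlrp3 at 0.361 ± 0.0733 (SD, n = 3). The ranges of Gsdmc2 and Casp1, of Nlrp6 and Gsdmd, and of the neighbours from Pycard to Casp4 overlapped. With DSS, Gsdmd was the highest of the 10 in Tmem173fl/fl colon, at 67 ± 3.61 RPKM, and Gsdmc4 was the fourth, at 33.4 ± 7.81, with a range that overlapped those of its neighbours Casp1 and Nlrp6. In colitic Tmem173iΔmye colon Gsdmc4 was again the highest, at 386 ± 146 RPKM. Nlrp3 was the lowest of the 10 in every group.

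**Figure D1:**
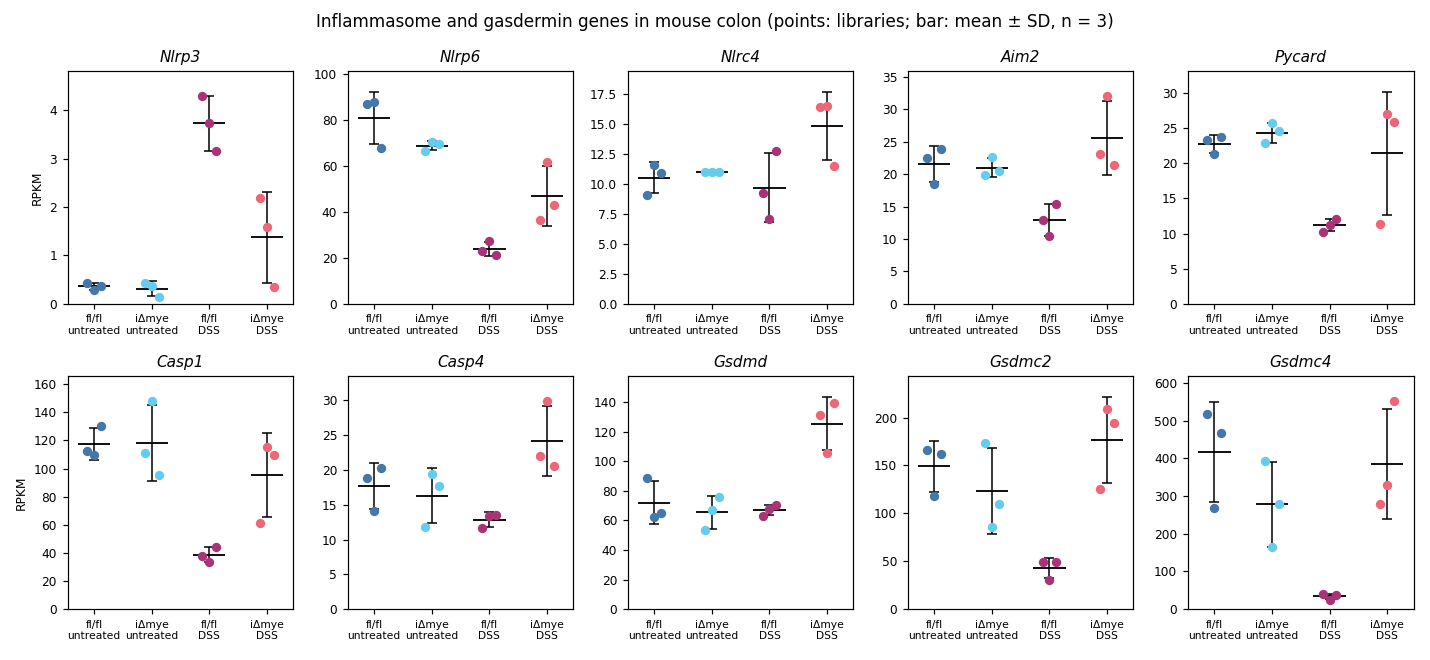
Level of each gene in every library, in RPKM on a linear axis from 0, by group (points are libraries, the horizontal bar is the mean and the whiskers the SD, n = 3). Nlrp3 was highest in colitic Tmem173fl/fl libraries (3.16 to 4.3 RPKM), and Gsdmc4 was lowest there (24.5 to 39.2 RPKM against 166 or more in every other library).

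DSS in Tmem173fl/fl mice raised the sensor gene Nlrp3 and lowered Nlrp6, Casp1, Gsdmc2 and Gsdmc4. Of the 10 genes, 1 was called higher and 4 lower, where a call needs both an adjusted p under 0.05 and a change of 1 log2 unit or more. Of all genes tested, 14.9% were called higher and 7.61% lower (22.5% in all). Pycard and Aim2 passed the adjusted p and fell by less than 1 log2 unit, so that 6 were lower by the adjusted p alone, against 16% of all genes. Of the 10, 8 had an unadjusted p under 0.05, against 44.5% of all genes. The groups did not overlap for 1 gene that was higher and 7 that were lower, against 23.9% and 25.4% of all genes. Nlrc4, Casp4 and Gsdmd did not pass the test. The replicates are separate libraries, and p-values measure the spread between them. The labels do not state that each library is a separate mouse, and libraries were treated as separate samples.

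In Tmem173iΔmye mice none of the 10 genes was called with DSS by edgeR, against 2.08% of all genes (1.48% higher and 0.597% lower), and 4 had an unadjusted p under 0.05, against 15.6%. Nlrp3 was called by DESeq2, with a log2 fold change of 2.15 (adjusted p 0.0129). The estimates ran from -0.56 for Nlrp6 to 2.13 for Nlrp3. Groups did not overlap for 3 genes that were higher and 1 that was lower, against 12.1% and 9.41% of all genes.

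Without DSS the genotypes were not told apart by the level of any of the 10 genes. Log2 fold changes (Tmem173iΔmye minus Tmem173fl/fl) ran from -0.58 for Gsdmc4 to 0.1 for Pycard, and edgeR called 0 of the 10, as it called 0% of all genes. None of the 10 had an unadjusted p under 0.05, against 2.99% of all genes, and DESeq2 called none of them either. The ranges of all 10 overlapped, whereas 7.35% of all genes had groups that did not. The 95% interval for Gsdmc4 reached from -1.18 to 0.03.

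Between colitic genotypes, Casp1, Gsdmc2 and Gsdmc4 were called higher in Tmem173iΔmye mice, against 0.822% of all genes called in that direction (1.99% were called lower, 2.81% in all). By the adjusted p alone Casp4 and Gsdmd passed as well, which made 5 of 10 higher against 0.954% of all genes. With 1 library left out, the adjusted p reached 0.219 for Casp4 and 0.229 for Gsdmd. Groups did not overlap for 7 genes that were higher and 1 that was lower (12% and 14.8% of all genes). All 10 had an unadjusted p under 0.05, against 20.2% of all genes. The count of 3 rested on single libraries, as 1 gene (Gsdmc4) was left when replicate 1 of colitic Tmem173fl/fl mice was dropped, or replicate 2 of colitic Tmem173iΔmye mice, and 6 were called without replicate 1 of the latter. This comparison shares the colitic Tmem173fl/fl libraries with the DSS comparison in that genotype, so the values of both stand side by side and are no independent evidence of each other. In the interaction over all 12 libraries, which tests whether the DSS effect differed between genotypes, Nlrp6, Gsdmc2 and Gsdmc4 were called higher, against 0.934% of all genes (1.61% were called lower, 2.55% in all), and 8 had an unadjusted p under 0.05, against 18.1% of all genes. Without replicate 1 of the colitic Tmem173iΔmye group 8 were called. That replicate stood apart in marker sums. Its leukocyte sum was 158 RPKM, against 67.8 and 57.8 in replicates 2 and 5. Its B and plasma cell sum was 473 against 120 and 105, and its pancreas sum 7130 against 63 and 0.295. The part of this in the counts of called genes was not tested. In bulk RNA fewer cells of a type and less RNA per cell cannot be told apart.

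**Figure D2:**
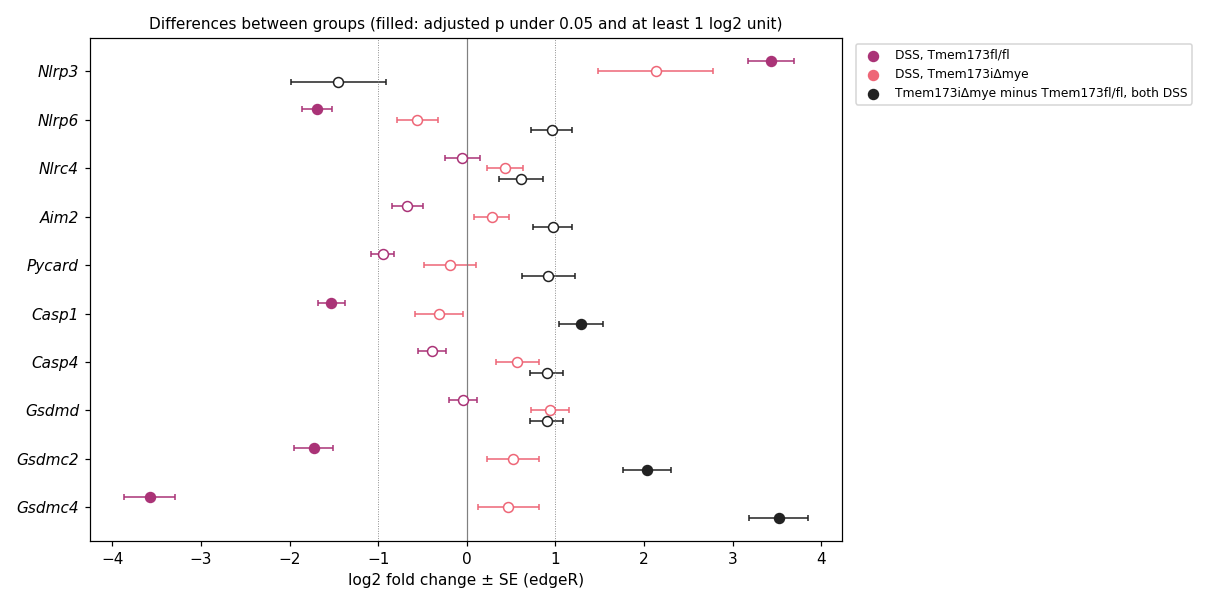
Log2 fold changes of the 10 genes for DSS in each genotype and for the genotype difference with DSS (points are edgeR estimates, whiskers are SE, filled points are called). Gsdmc4 stood at -3.58 for DSS in Tmem173fl/fl mice and at 3.52 for the difference between colitic genotypes, and Nlrp3 at 3.43 and -1.45.

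Nlrp3 (chromosome 11, 59541568 to 59566956, GRCm38, plus strand) encodes the sensor that responds to potassium loss and other signs of membrane damage. It was at 0.429, 0.284 and 0.371 RPKM in untreated Tmem173fl/fl libraries, at 0.434, 0.369 and 0.133 in untreated Tmem173iΔmye ones, at 4.3, 3.73 and 3.16 in colitic Tmem173fl/fl ones and at 2.2, 1.58 and 0.344 in colitic Tmem173iΔmye ones. All colitic Tmem173fl/fl libraries were above all others, and replicate 5 of the colitic Tmem173iΔmye group, with 23 counts, was within the untreated range. The rise with DSS was 3.43 with an SE of 0.26 in Tmem173fl/fl mice (10.8-fold, edgeR adjusted p 8.67e-06). In Tmem173iΔmye mice the log2 fold change was 2.13 (SE 0.65, edgeR adjusted p 0.144), and it was called without replicate 5 (2.62, adjusted p 0.00611). The colitic genotypes differed by -1.45 (SE 0.54, adjusted p 0.184), and the interaction was -1.24 (SE 0.76, adjusted p 0.418). With 1 library left out these ran from -1.98 to -0.99 and from -1.75 to -0.79, and neither was called in any such fit.

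Markers of myeloid cells moved with Nlrp3 between the groups. Replicates 1, 2 and 5 of colitic Tmem173iΔmye mice had Nlrp3 levels of 2.2, 1.58 and 0.344 RPKM, monocyte and macrophage sums of 158, 127 and 125 RPKM, and neutrophil sums of 95.3, 125 and 20.7 RPKM. All 6 neutrophil markers, of which S100a8, Cxcr2 or Mmp8 were at 0 counts in 5 of the 6 untreated libraries, and 4 of 6 monocyte and macrophage markers were called higher with DSS in Tmem173fl/fl mice, and the sums of the latter ran from 58.8 to 90 RPKM in untreated libraries, from 200 to 238 in colitic Tmem173fl/fl ones and from 125 to 158 in colitic Tmem173iΔmye ones. Per 1000 FPKM of 4 summed leukocyte markers (Ptprc, Cd53, Laptm5 and Coro1a), Nlrp3 rose from 5 to 34.3 FPKM with DSS in Tmem173fl/fl mice (geometric means), with no overlap between groups. Colitic Tmem173iΔmye libraries were at 12.4, below all colitic Tmem173fl/fl libraries. Both differences gave an exact permutation p of 0.1 (two-sided, 3 against 3), which is the smallest this design allows. The part of cell numbers in the rise was not tested.

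Nlrp6 (chromosome 7, 140920902 to 140929192, plus strand), a sensor known for its role in goblet cells and the response to microbes, was at 87, 88.2 and 68.1 RPKM in untreated Tmem173fl/fl libraries and at 66.8, 70.4 and 69.8 in untreated Tmem173iΔmye ones. With DSS it was at 23.1, 27.4 and 21.2 in Tmem173fl/fl libraries and at 36.5, 61.7 and 42.9 in Tmem173iΔmye ones. The 4 groups fell into an order with colitic Tmem173fl/fl libraries lowest, colitic Tmem173iΔmye libraries next and untreated libraries on top, without overlap between these steps. The fall in Tmem173fl/fl mice was 3.23-fold (log2 fold change -1.69, SE 0.17, edgeR adjusted p 4.79e-05). In Tmem173iΔmye mice the log2 fold change was -0.56 (SE 0.23, adjusted p 0.27), and the interaction was 1.21 (SE 0.28, adjusted p 0.0382). That call was lost in 8 of the 12 fits that left out 1 library, with adjusted p-values up to 0.113.

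Aim2 (chromosome 1, 173350879 to 173466040, plus strand) encodes a receptor of double-stranded DNA in the cytosol. It was at 18.5 to 23.8 RPKM in all untreated libraries, at 12.9, 10.4 and 15.4 in colitic Tmem173fl/fl libraries and at 23.1, 32.1 and 21.5 in colitic Tmem173iΔmye ones. Every colitic Tmem173fl/fl library was below every other library. The fall with DSS in Tmem173fl/fl mice was 0.67 log2 units (SE 0.17, edgeR adjusted p 0.0118), under the fold limit. Colitic genotypes differed by 0.97 (SE 0.22, adjusted p 0.0509).

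Nlrc4 (chromosome 17, 74425438 to 74459142, minus strand) works with the NAIP receptors that bind bacterial flagellin and secretion needles. It stayed within 7.06 to 16.5 RPKM in all 12 libraries and was called in no comparison. Its log2 fold change with DSS was -0.05 in Tmem173fl/fl mice, with a 95% interval from -0.51 to 0.4. In colitic libraries it was at 9.26, 7.06 and 12.7 RPKM in Tmem173fl/fl mice and at 16.4, 16.5 and 11.5 in Tmem173iΔmye mice, with overlap.

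Pycard (chromosome 7, 127989708 to 127993867, minus strand), the adaptor through which most sensors reach caspase-1, was at 21.2 to 25.7 RPKM in untreated libraries and at 10.3, 11.3 and 12.1 in colitic Tmem173fl/fl ones. It fell by 0.95 log2 units with an SE of 0.13 there (1.94-fold, edgeR adjusted p 0.000305). Colitic Tmem173iΔmye libraries were at 11.4, 27 and 25.9 RPKM, so that replicate 1 lay among the colitic Tmem173fl/fl libraries and the others above all untreated libraries. The colitic genotypes differed by 0.92 (SE 0.3, adjusted p 0.134), and by 1.22 without replicate 1 (adjusted p 0.0131). Of its 3800 exon bases, 485 overlap the antisense gene Gm45205, and as the use of strand in counting is not given in the sources used here, reads of both cannot be told apart in that stretch.

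Casp1 and Casp4 are neighbours on chromosome 9 (Casp1 at 5298517 to 5307265 and Casp4 at 5308828 to 5336783, both on the plus strand). Casp1 was at 112, 109 and 130 RPKM in untreated Tmem173fl/fl libraries and at 111, 148 and 95.2 in untreated Tmem173iΔmye ones. With DSS it was at 38.1, 33.7 and 44.4 in Tmem173fl/fl mice and at 61.4, 115 and 109.6 in Tmem173iΔmye mice. Colitic Tmem173fl/fl libraries were the lowest 3 of the 12. The fall was 2.89-fold (log2 fold change -1.53, SE 0.15, edgeR adjusted p 4.98e-05) in Tmem173fl/fl mice, and in Tmem173iΔmye mice the log2 fold change was -0.31 (SE 0.27, adjusted p 0.64). The difference between colitic genotypes, 1.29 (SE 0.25, adjusted p 0.0344), held as a call in 1 of the 6 fits that left out 1 library, the one without replicate 1 of colitic Tmem173iΔmye mice. In the other 5 it had adjusted p-values of up to 0.16. The interaction was 1.29 (SE 0.33, adjusted p 0.0537).

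Casp4 was at 18.8, 14 and 20.3 RPKM in untreated Tmem173fl/fl libraries and at 11.8, 19.4 and 17.7 in untreated Tmem173iΔmye ones. With DSS it was at 11.6, 13.4 and 13.6 in Tmem173fl/fl mice and at 22, 29.9 and 20.6 in Tmem173iΔmye mice. Each colitic Tmem173fl/fl library was below its untreated libraries and each colitic Tmem173iΔmye library was above its own. Neither DSS effect passed the test (-0.39, adjusted p 0.0882, and 0.57, adjusted p 0.285), nor did the interaction (1.03, SE 0.3, adjusted p 0.0847). The colitic genotypes differed by 0.9 (SE 0.19, edgeR adjusted p 0.0427, up to 0.219 with 1 library left out), under the fold limit. Within libraries the FPKM ratio of Casp4 to Casp1 rose from 0.15 to 0.334 with DSS in Tmem173fl/fl mice and from 0.137 to 0.26 in Tmem173iΔmye mice (geometric means), without overlap in either genotype, though narrowly in the latter (0.186 in the highest untreated and 0.188 in the lowest colitic library, exact permutation p = 0.1 each, two-sided, the smallest possible). Casp12, the next gene on the chromosome, rose in both genotypes (1.06, adjusted p 0.00541, and 1.34, adjusted p 0.0345).

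Gsdmd (chromosome 15, 75862327 to 75867408, plus strand), the common target of both caspases, was at 88.9, 62.2 and 65.2 RPKM in untreated Tmem173fl/fl libraries and at 53.8, 67.1 and 75.6 in untreated Tmem173iΔmye ones. It was at 63.2, 67.7 and 70.3 in colitic Tmem173fl/fl libraries and at 131.6, 105.6 and 140 in colitic Tmem173iΔmye ones. The colitic Tmem173iΔmye libraries were above all 9 others. DSS changed it by -0.04 log2 units in Tmem173fl/fl mice (95% interval from -0.4 to 0.33) and by 0.94 with an SE of 0.21 in Tmem173iΔmye mice (edgeR adjusted p 0.0533). Colitic genotypes differed by 0.9 (SE 0.19, adjusted p 0.0447, up to 0.229 with 1 library left out), under the fold limit. The interaction was 1.04 (SE 0.26, adjusted p 0.0505).

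Gsdmc2 was at 167, 118 and 162 RPKM in untreated Tmem173fl/fl libraries, at 173, 85.8 and 110.1 in untreated Tmem173iΔmye ones, at 48.7, 30.7 and 49.2 in colitic Tmem173fl/fl ones and at 125, 209 and 195 in colitic Tmem173iΔmye ones. It fell 3.32-fold with DSS in Tmem173fl/fl mice (log2 fold change -1.73, SE 0.22, edgeR adjusted p 0.000222) and was at 0.52 with an SE of 0.29 in Tmem173iΔmye mice (adjusted p 0.444). Colitic Tmem173iΔmye libraries were 4.09-fold higher than colitic Tmem173fl/fl ones (2.03, SE 0.27, adjusted p 0.0148), a call lost when replicate 1 of colitic Tmem173fl/fl mice or replicate 2 of colitic Tmem173iΔmye mice was dropped (adjusted p up to 0.0719). The interaction was 2.32 (SE 0.4, adjusted p 0.0098) and was called in all 12 fits that left out 1 library.

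Gsdmc4 had the widest range of RPKM of the 10 genes. It was at 518, 267 and 467 RPKM in untreated Tmem173fl/fl libraries, at 392, 166 and 278 in untreated Tmem173iΔmye ones, at 39.2, 24.5 and 36.5 in colitic Tmem173fl/fl ones and at 278, 328 and 552 in colitic Tmem173iΔmye ones. The colitic Tmem173fl/fl libraries were far below all others, which overlapped among themselves. The fall with DSS in Tmem173fl/fl mice was 11.9-fold (log2 fold change -3.58, SE 0.29, edgeR adjusted p 1.46e-05), whereas in Tmem173iΔmye mice the log2 fold change was 0.47 (SE 0.34, adjusted p 0.568). Colitic Tmem173iΔmye libraries were 11.5-fold higher than colitic Tmem173fl/fl ones (3.52, SE 0.33, adjusted p 0.0084), and the interaction was 4.11 (SE 0.5, adjusted p 0.0029). Both calls held whichever library was left out, with log2 fold changes from 3.17 to 3.71 and from 3.75 to 4.44.

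Epithelial markers fell in the same libraries, with 5 of 6 called lower with DSS in Tmem173fl/fl mice and none of 6 called between colitic genotypes by edgeR (2 by DESeq2, and 5 with an unadjusted p under 0.05, median 0.78 higher in Tmem173iΔmye mice). Markers of colonocytes and goblet cells moved as well. Of 6 colonocyte markers 4 were called lower and 1 (Car1) higher with DSS in Tmem173fl/fl mice. Slc26a3 (1.84, adjusted p 0.0332) and Car4 (2.1, adjusted p 0.0185) were called higher in colitic Tmem173iΔmye mice. Car1 alone of the 6 had a negative estimate there (-0.3, adjusted p 0.702). Their sums overlapped, at 1710 to 2590 RPKM in untreated, 1550 to 2170 in colitic Tmem173fl/fl and 1160 to 2970 in colitic Tmem173iΔmye libraries. Replicate 5 of the last group was the lowest. Of 6 goblet markers 4 were called lower with DSS in Tmem173fl/fl mice, and Clca1 (2.32, adjusted p 0.0278) was called higher in colitic Tmem173iΔmye mice. The part of these cell types in the gasdermin C values was not tested. The ratios of 6 genes to the sum of the 6 general epithelial markers were computed within each library, as FPKM per 1000 FPKM of markers (geometric means of 3 libraries). Gsdmc4 went from 70.4 to 13.7 with DSS in Tmem173fl/fl mice, 5.15-fold lower, and colitic Tmem173iΔmye libraries were at 85.2, 6.24-fold above the colitic Tmem173fl/fl ones. Gsdmc2 went from 25.8 to 17.5 in Tmem173fl/fl mice and from 20.2 to 39.8 in Tmem173iΔmye mice. In Tmem173iΔmye mice Gsdmc4 went from 44.9 to 85.2, with overlap (exact permutation p = 0.3). The other Gsdmc4 groups compared here did not overlap. Those of Gsdmc2 nearly touched, with 19.7 in the lowest untreated and 19.6 in the highest colitic Tmem173fl/fl library, and with 33.3 in both the highest untreated and the lowest colitic Tmem173iΔmye library (equal at the digits given). Each of the 4 differences other than that with overlap had an exact permutation p of 0.1 (two-sided), the smallest possible with 3 against 3.

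The ratio behaved otherwise for Gsdmd and Casp4. Gsdmd per 1000 FPKM of epithelial markers rose from 12.5 to 27.9 with DSS in Tmem173fl/fl mice and from 11.1 to 28.8 in Tmem173iΔmye mice. Casp4 rose from 3.07 to 5.36 and from 2.73 to 5.51. These 4 rises had no overlap between groups (exact permutation p = 0.1 each, two-sided), and with DSS the genotypes differed by 1.03-fold for each gene (exact permutation p = 0.9 for Gsdmd and p = 1 for Casp4). For Nlrp6 and Casp1 the fall in Tmem173fl/fl mice became 1.43-fold and 1.28-fold, with overlap (exact permutation p = 0.4 and p = 0.3). Between colitic genotypes their ratios were 1.07-fold and 1.32-fold higher in Tmem173iΔmye mice, with overlap (exact permutation p = 0.9 and p = 0.2). Without DSS the Nlrp6 ratio was 14.1 in Tmem173fl/fl and 11.8 in Tmem173iΔmye mice, without overlap (exact permutation p = 0.1, two-sided). Per 1000 FPKM of summed leukocyte markers, Casp4 moved the other way in Tmem173fl/fl mice. It was at 216, 225 and 306 in untreated libraries and at 104, 95.6 and 170 in colitic ones. In Tmem173iΔmye mice it was at 232, 268 and 302 without DSS and at 140, 441 and 356 with DSS, with overlap. Casp1, Pycard and Aim2 per leukocyte markers also fell in Tmem173fl/fl mice, by 4.61-, 3.08- and 2.55-fold, without overlap (exact permutation p = 0.1 each, two-sided). Nlrc4 was 1.69-fold lower, with overlap (exact permutation p = 0.2). With DSS in Tmem173iΔmye mice the log2 ratios changed by -0.84 for Casp1, -0.79 for Pycard, -0.24 for Aim2 and -0.09 for Nlrc4, all with overlap. Which cells held the transcripts was not measured, so the ratios are a description.

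**Figure D3:**
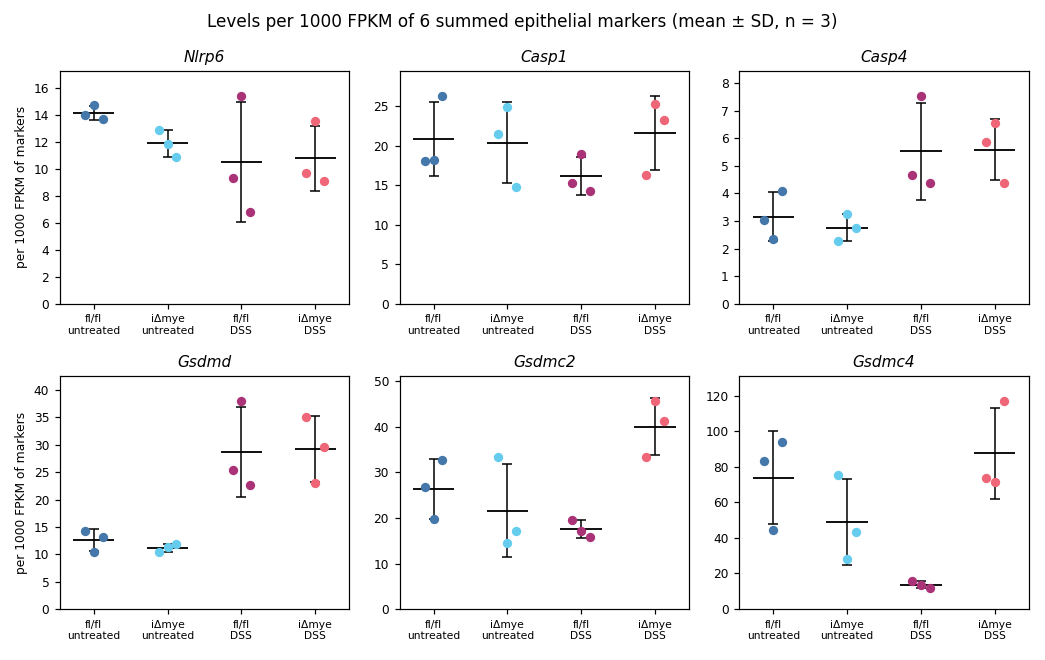
Levels of 6 genes per 1000 FPKM of summed epithelial markers in each library, on linear axes from 0 (points are libraries, bars arithmetic means, whiskers SD, n = 3). Gsdmd and Casp4 were higher with DSS in both genotypes, and Gsdmc4 was lowest in colitic Tmem173fl/fl libraries, at a geometric mean of 13.7.

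By the deposited FPKM, Gsdmc4 and Gsdmc2 did not fall in proportion. How reads that fit several genes were counted is not given, and the part of such reads in this ratio was not tested. The FPKM ratio of Gsdmc4 to Gsdmc2 was 2.72 in untreated Tmem173fl/fl libraries and 0.782 in colitic ones, without overlap (exact permutation p = 0.1, two-sided). In Tmem173iΔmye mice it was 2.23 without and 2.14 with DSS, with overlap (exact permutation p = 0.9). The third gene of the run, Gsdmc3, was at 58.2 to 101 RPKM in untreated Tmem173fl/fl libraries, at 15.9, 10.7 and 20 in colitic ones and at 29.8, 72.8 and 83.1 in colitic Tmem173iΔmye ones. It fell by 2.32 log2 units with an SE of 0.26 with DSS in Tmem173fl/fl mice (edgeR adjusted p 0.00011), and colitic Tmem173iΔmye mice were 1.98 higher (SE 0.38, adjusted p 0.0337).

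Other genes of the pathway, in 6 lists of 45 genes of which 42 were tested, were examined in the same fits. With DSS 9 of the 42 were called higher and 9 lower in Tmem173fl/fl mice, against 14.9% and 7.61% of all genes. In Tmem173iΔmye mice 4 were called higher and 0 lower by edgeR, against 1.48% and 0.597% of all genes (2 had an unadjusted p under 0.05 and were lower, and DESeq2 called 8 higher and 0 lower). The comparison of colitic genotypes called 5 of them higher and 1 lower in Tmem173iΔmye libraries by edgeR, against 0.822% and 1.99% of all genes, and 11 higher and 1 lower by DESeq2. The median log2 fold changes of the 42 were -0.09, 0.26 and 0.37, beside medians of 0.03, 0.02 and 0.02 over all genes tested. Without DSS none of the 42 was called between genotypes by edgeR or DESeq2, and 1 had an unadjusted p under 0.05.

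Among 13 other sensors, 2 were called higher and 2 lower with DSS in Tmem173fl/fl mice. Nlrp1b fell by 1.35 log2 units and Nlrp10 by 2.47, while Mefv, the pyrin gene of myeloid cells, rose by 1.5. Nlrp12, a gene of neutrophils and monocytes, had 0 counts in all untreated Tmem173fl/fl libraries and 30, 18 and 18 counts in the colitic ones. The NAIP genes that serve Nlrc4 passed the adjusted p with falls of 0.64 to 0.88 log2 units. Between colitic genotypes Nlrp1b (1.07), Nlrp9b (1.85), a sensor of intestinal epithelium, and Nlrp10 (2.42) were called higher in Tmem173iΔmye mice. All 3 also had a called interaction.

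Of 7 other gasdermin and membrane rupture genes, Gsdma2 and Gsdma3 had no counts in any library and Gsdmc had at most 4, so these were not tested. Gsdma was below 1.03 RPKM in every library and was not called. Gsdme, another pore-forming gasdermin, was at 0.896 to 1.96 RPKM and was not called, with a log2 fold change of 0.41 with DSS in Tmem173fl/fl mice (edgeR adjusted p 0.162). Ninj1, whose product ruptures the membrane after pores form, was at 9.97 to 12.2 RPKM in untreated Tmem173fl/fl libraries, at 27.6, 37.4 and 24.5 in colitic ones and at 17.5, 14.7 and 12.3 in colitic Tmem173iΔmye ones. It rose by 1.5 log2 units with an SE of 0.18 with DSS in Tmem173fl/fl mice (adjusted p 0.000183), and the interaction was -1.3 (SE 0.28, adjusted p 0.0301).

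Of 4 other death caspases, Casp12 was called with DSS in both genotypes, and Casp8, the initiator caspase of death receptors, had a called interaction of 1.1 log2 units (edgeR adjusted p 0.0191). Of 8 upstream genes edgeR called 1, the NLRP3 regulator Trim30a, which fell by 2.49 with DSS in Tmem173fl/fl mice, while DESeq2 also called 2 higher between colitic genotypes and 1 in the interaction. Of 6 guanylate-binding proteins, interferon-induced proteins that open bacteria and their vacuoles to caspase-4, Gbp2, Gbp3, Gbp6 and Gbp7 fell by 1.95 to 2.24 log2 units in Tmem173fl/fl mice. None of the 6 was called between colitic genotypes by edgeR, with 3 at an unadjusted p under 0.05, 3 called higher by DESeq2 and a median log2 fold change of 1.14.

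Of the cytokines cleaved by caspase-1, Il1b was called higher with DSS in Tmem173fl/fl mice and Il18 was not, while in Tmem173iΔmye mice both estimates were positive and neither was called by edgeR (DESeq2 called 6 of the 7 genes of their list higher there). Il1b was at 7.43, 2.27 and 4.04 RPKM in untreated Tmem173fl/fl libraries and at 39.7, 31.6 and 28 in colitic ones, a rise of 2.93 log2 units (SE 0.36, edgeR adjusted p 0.00017). In Tmem173iΔmye mice it was at 3.76 to 4.6 RPKM without DSS and at 31.5, 19.2 and 5.25 with DSS (2.14, SE 0.5, adjusted p 0.061). Replicate 5, low in Nlrp3, was also the lowest of these 3 libraries in Il1b. Colitic genotypes differed by -0.83 (SE 0.51, adjusted p 0.403).

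Il18 was at 22.4 to 39.7 RPKM in untreated libraries and at 28, 17 and 24.9 in colitic Tmem173fl/fl ones, and it did not pass the test there (-0.4, SE 0.24, edgeR adjusted p 0.236). Colitic Tmem173iΔmye libraries were at 50.8, 70.5 and 160.3 RPKM, all above every other library, and replicate 5 was the highest (1.66 with DSS, SE 0.38, adjusted p 0.0533). The genotype difference with DSS was 2 log2 units (SE 0.41, adjusted p 0.0423), and the interaction was 2.13 (SE 0.51, adjusted p 0.0417). Il18bp, which encodes the soluble antagonist of interleukin-18, fell by 1.79 log2 units with an SE of 0.34 with DSS in Tmem173fl/fl mice (adjusted p 0.00245), and its interaction was 2.04 (SE 0.47, adjusted p 0.0373). The alarmins Il1a and Il33 rose in both genotypes, by 3.64 and 3.55 in Tmem173fl/fl mice and by 3.16 and 2.49 in Tmem173iΔmye mice, as did Il1rn, the gene of the interleukin-1 receptor antagonist (1.21 and 1.68, adjusted p 0.00165 and 0.0134). The decoy receptor gene Il1r2 rose by 4.74 in Tmem173fl/fl mice and was 2.54 lower in colitic Tmem173iΔmye mice (adjusted p 0.0453).

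**Figure D4:**
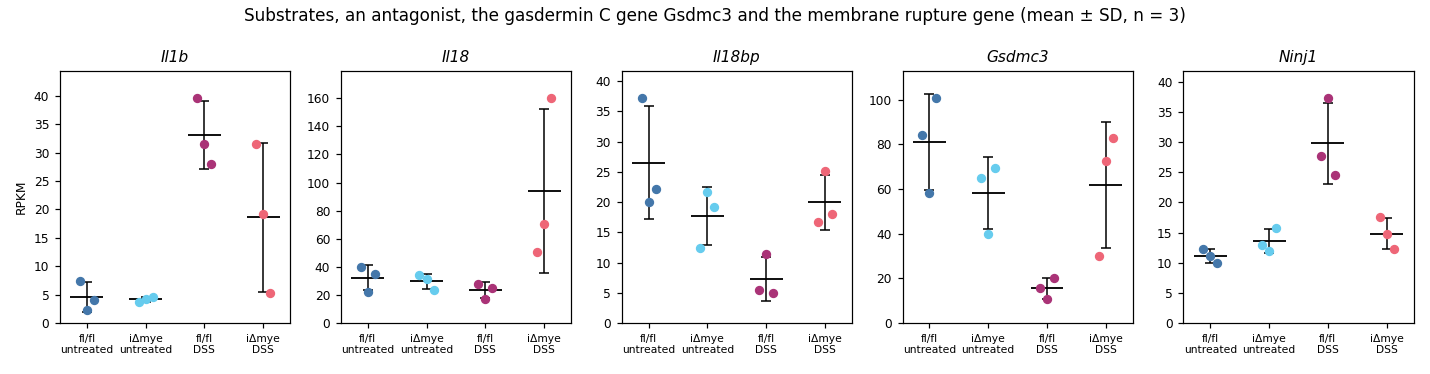
Level of Il1b, Il18, Il18bp, Gsdmc3 and Ninj1 in every library, in RPKM on linear axes from 0 (points are libraries, bars means, whiskers SD, n = 3). Il18 was highest in colitic Tmem173iΔmye libraries (50.8 to 160.3 RPKM, against at most 39.7 elsewhere), and Ninj1 was highest in colitic Tmem173fl/fl libraries (24.5 to 37.4 RPKM).

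For the 5 genes called in at least 1 comparison, the genes whose pattern was most like theirs were found by Pearson r of log2(CPM + 0.5) over 12 libraries among 14557 genes. Nlrp3 was closest to Adam8 (r 0.983) and Tenm3 (0.98), Nlrp6 to Rmdn3 (0.986) and Irgm2 (0.98), and Casp1 to Pof1b (0.993) and Dram2 (0.988). Gsdmc2 was closest to Gsdmc4 (0.969) and Gsdmcl2 (0.959), a neighbouring pseudogene, and Gsdmc4 to Tmem50b and Capn13 (0.979 each). The 12 libraries share the 4 groups, so these values mostly describe the group pattern. The part of reads that fit several genes in the values among Gsdmc2, Gsdmc4 and Gsdmcl2 was not tested. By Spearman's rho only 1 of these 10 neighbours, Capn13 for Gsdmc4, was again among the nearest.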

How the data were processed

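The deposited table holds, per the file headers, whole-number counts and FPKM of each gene in each library. The authors' processing notes name CASAVA 1.8, fastp, HISAT2 2.0.5, featureCounts 1.5.0-p3 and DESeq2 1.20.0 on GRCm38 (mm10), and the use of strand and of reads that fit several genes is not given in the sources used here. The authors' own columns of fold changes and p-values were not used.

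Counts were tested with edgeR 4.0.16 (quasi-likelihood F test, TMM scaling, R 4.3.3) on genes whose FPKM was at least 0.1 in at least 3 libraries (24102 of 54532). Only the groups compared entered a fit, the interaction used all 12 libraries, and p-values were adjusted over all genes tested (Benjamini-Hochberg). The SE is the log2 fold change divided by the square root of F. Intervals are 95%, from the same fit's t distribution. Calls required an adjusted p under 0.05 together with a change of 1 log2 unit or more, one of the fold limits that the study's text gives. Levels are RPKM from the counts with TMM scaling over 12 libraries, and ratios within libraries use the deposited FPKM. Totals of 13823237 to 18718915 counts left Nlrp3 with 9 to 322 counts and every other of the 10 genes with 568 or more.

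Groups came from the sample titles. The 10 genes, the 6 pathway lists and the marker lists were chosen with earlier results of these data known. All 10 genes are named, as are listed genes called in a comparison, Il1b, Il18, the other gasdermins, Tmem173 and, for each called gene, the 2 genes nearest in pattern by Pearson r. Genes given beside a call that passed by adjusted p alone, and single marker genes, were named after their values were seen. Samples that share a replicate number did not deviate together in every pair (r from -0.172 to 0.184), so numbers were not used as pairs. Alternatives were other filters, RLE and upper quartile scaling, DESeq2 1.42.0, limma 3.58.1 on log2(FPKM + 0.1) and log2(FPKM + 1), other call rules, 1 fit of all libraries, a replicate block, libraries with Y-linked counts alone, single markers for ratios, and each library left out. The scripts were tested on simulated data. The consensus spellings of ISRE and NF-kB were set after a first search with other spellings. Of the listed pathway genes, 2 are not reported here and were left out of the list counts.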

Additional observations from a re-analysis of the deposited data

Results flagged for a closer look

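The effect of DSS differed between the genotypes by the interaction test (edgeR, all 12 libraries) for 3 of the 10 genes described first and 8 of the 42 tested genes of the pathway lists, against 2.55% of all genes. Values are given as the DSS effect in Tmem173iΔmye mice minus that in Tmem173fl/fl mice on the log2 scale. Of the 10 these were Gsdmc4 at 4.11 (adjusted p 0.0029), Gsdmc2 at 2.32 (adjusted p 0.0098) and Nlrp6 at 1.21 (adjusted p 0.0382). The call of Nlrp6 was lost in 8 of the 12 fits that left out 1 library, and in libraries with Y-linked counts Gsdmc4 was the 1 gene of the 10 called.

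Among the pathway lists, Gsdmc3 stood at 2.47 (adjusted p 0.0206), Nlrp10 at 2.4 (adjusted p 0.0153), Il18 at 2.13 (adjusted p 0.0417), Il18bp at 2.04 (adjusted p 0.0373) and Nlrp9b at 2.01 (adjusted p 0.0122). Nlrp1b stood at 1.31 (adjusted p 0.021) and Casp8 at 1.1 (adjusted p 0.0191). Ninj1 alone of these was negative, at -1.3 (adjusted p 0.0301). The causes of these differences were not tested.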

How the results depend on the processing

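Gsdmc4 was called in every alternative tried for DSS in Tmem173fl/fl mice, for the colitic genotypes and for the interaction. Of the alternative log2 fold changes of the 10 genes, 633 kept their direction and their side of the threshold, 33 passed it, 9 no longer passed and 15 changed sign. Where a value moved and nothing else is said, the cause was not tested. With 3 libraries a group, Nlrp3 had the lowest counts of the 10 genes, 9 to 29 in untreated libraries. Its SE for DSS was 0.26 in Tmem173fl/fl mice and 0.65 in Tmem173iΔmye mice. Depth and the spread between libraries were not compared as limits.

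Leaving out 1 library gave 5 to 6 called genes for DSS in Tmem173fl/fl mice (5 with all libraries), 0 to 1 for DSS in Tmem173iΔmye mice (0), 0 between untreated genotypes (0), 1 to 6 between colitic genotypes (3) and 2 to 8 for the interaction (3). For DSS in Tmem173iΔmye mice, 1 gene (Nlrp3) was called with no filter, with DESeq2, by an unadjusted p of at most 0.05 with the same fold limit (the unadjusted rule), in 1 fit of 12 libraries and in libraries with Y-linked counts. Between colitic genotypes 1 gene was called by limma with a pseudocount of 0.1 and 5 by adjusted p alone. For the interaction 5 were called by DESeq2, 7 by the unadjusted rule and 1 in libraries with Y-linked counts (fewer libraries).

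With the replicate block, the numbers being only numbers, the called genes were 1 for DSS in Tmem173iΔmye mice (Nlrp3), 5 between colitic genotypes and 5 for the interaction, and 5 and 0 in the other comparisons. Casp1 between untreated genotypes was then 0. Of the nearest genes in pattern, 1 of 10 was kept by Spearman's rho.

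Over all genes tested, the calls for DSS in Tmem173fl/fl mice went from 5422 to 2848 with limma (pseudocount 1) and 8544 by adjusted p alone. Those for DSS in Tmem173iΔmye mice went from 501 to between 51 (replicate 2 of untreated Tmem173iΔmye mice dropped) and 2193 (unadjusted rule), and those between colitic genotypes from 678 to between 27 (replicate 1 of colitic Tmem173fl/fl mice dropped) and 2505 (unadjusted rule). Those for the interaction went from 614 to between 201 (libraries with Y-linked counts) and 2747 (unadjusted rule), and those between untreated genotypes from 0 to at most 328 (unadjusted rule).

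Several values near 0, none of them called, changed sign. Ranges are over fits with 1 library left out. Log2 fold changes between untreated genotypes were -0.51 to 0.16 for Nlrp3 (0.19 in libraries with Y-linked counts), up to 0.05 for Aim2 (0.06 in those libraries), down to -0.03 for Nlrc4, -0.18 to 0.15 for Casp1 (0 with either limma pseudocount), -0.26 to 0.08 for Casp4 and up to 0.05 for Gsdmd. With DSS they were -0.32 to 0.11 for Nlrc4 and -0.14 to 0.14 for Gsdmd (0.01 with an FPKM of at least 1) in Tmem173fl/fl mice, and -0.38 to 0.12 for Pycard in Tmem173iΔmye mice.

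Log2 ratios to epithelial markers between colitic genotypes were -0.18 to 0.41 for Nlrp6, down to -0.11 for Gsdmd and -0.11 to 0.29 for Casp4, and to Epcam alone -0.07, -0.12 and -0.13. Between untreated genotypes they were -0.37 to 0.04 for Casp4 and -0.21 to 0.17 for Casp1, and with DSS in Tmem173iΔmye mice -0.12 to 0.28 for Casp1. Ratios to leukocyte markers with DSS in Tmem173iΔmye mice were -0.34 to 0.27 for Nlrc4, -0.58 to 0.26 for Aim2, -1.26 to 0.06 for Pycard and -0.25 to 0.58 for Casp4, and between untreated genotypes -0.56 to 0.4 for Nlrp3. To Ptprc alone they were 0.1 for Nlrc4 in Tmem173fl/fl mice, and 0.2 for Nlrc4 and 0.04 for Aim2 in Tmem173iΔmye mice. Gsdmc4 to Gsdmc2 with DSS in Tmem173iΔmye mice was -0.26 to 0.17, and Casp4 to Casp1 between untreated genotypes -0.34 to 0.06.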
